A study of Homo sapiens with 16 samples.

Results

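The genes GATA2, GATA3, TFAP2A, TFAP2C, KRT8, KRT18 and KRT19, early markers of trophoblast and surface ectoderm, were followed by RNA-seq in the human embryonic stem cell line H1, over 16 libraries. They were taken by gene symbol from the deposited expression table, where all 7 of them were found among 17738 genes. All cells had spent 24 h in E7, a culture medium made by leaving TGFb out of E8. The groups were E7 with Activin A at 100 ng/mL, E7 with NODAL at 100 ng/mL, E7 with TGFb at 1.74 ng/mL and plain E7, each with and without 3 mM 2-deoxyglucose (2DG), a glucose analogue that blocks glycolysis. Each of the 8 groups had 2 libraries, and the labels do not say whether these were separate cultures, so every p-value below measures only the spread between these samples.

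GATA2 and GATA3 are zinc-finger factors, and TFAP2A and TFAP2C are AP-2 factors. Together they act early in trophoblast, and GATA3 and TFAP2A also in surface ectoderm, while TFAP2C is in addition expressed in naive pluripotent cells and germ cells. KRT8 and KRT18 pair with each other to build the intermediate filaments of simple epithelia, which undifferentiated embryonic stem cells also carry, and KRT19 is a further simple-epithelial keratin. TGFb, Activin A and NODAL are ligands of one family that signal through SMAD2 and SMAD3, and Activin A or NODAL signalling is known to hold human pluripotent cells back from BMP-driven trophoblast-like and ectodermal fates.

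The libraries held between 14600479 and 17630329 reads in the table. The values are normalised read counts, that is, the reads of a gene over the size factor of its library, and 1 read was worth close to 1 unit in every library. Markers of pluripotency were high throughout, with POU5F1 between 31406 and 63985 and LIN28A between 24610 and 45195 normalised reads. Of 8 tested pluripotency genes, POU5F1 (log2 fold change -0.46) and NANOG (-0.47) fell with 2DG in plain E7, and SALL4 (0.54) and PODXL (0.45) rose (limma adjusted p = 0.037, 0.0062, 0.00095 and 0.047). LIN28A and SOX2 fell with Activin A (-0.51 and -0.35) and with NODAL (-0.40 and -0.25), and ZFP42 fell with NODAL (-0.43). The 2 libraries of E7 with Activin A stood apart from each other: their counts differed by a chi-square of 57.3 per degree of freedom, against 1.60 to 15.8 in the other 7 groups, and the log2 difference of the first minus the second correlated with transcript length across 16335 genes at rho = -0.46. Because all groups share 1 estimate of the spread in the tests, results that turn on the Activin A libraries are given with and without them.

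Calls were made with limma on log2(value + 1) over the 16714 genes that reached 10 normalised reads in at least 2 libraries, at a Benjamini-Hochberg adjusted p under 0.05. Of the 7 genes, 6 entered that test, all but TFAP2A.

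The largest called changes were those of GATA2, a regulator of trophoblast giant cells in mice and of blood and endothelial progenitors. It lies on the minus strand of chromosome 3 (GRCh38, chr3:128479427-128493185). RefSeq (GRCh38.p14) gives it 2 start sites, and the 250 bases before and 50 after each are shown because GATA2 moved most with the ligands, whose SMADs bind the SMAD box. Capitals mark matches, on either strand, to 4 motifs: the SMAD box CAGAC, the FOXH1 motif TGTNNATT, the AP-2 motif GCCNNNGGC and the GATA motif GATAA.
GATA2 promoter 1, chr3:128493152-128493451, minus strand: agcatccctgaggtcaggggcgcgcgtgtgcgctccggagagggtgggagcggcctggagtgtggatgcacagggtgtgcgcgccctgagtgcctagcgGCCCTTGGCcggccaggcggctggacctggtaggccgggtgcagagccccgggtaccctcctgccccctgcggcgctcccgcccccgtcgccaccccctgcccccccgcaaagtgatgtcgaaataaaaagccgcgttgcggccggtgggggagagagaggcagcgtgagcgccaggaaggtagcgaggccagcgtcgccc
GATA2 promoter 2, chr3:128488481-128488780, minus strand: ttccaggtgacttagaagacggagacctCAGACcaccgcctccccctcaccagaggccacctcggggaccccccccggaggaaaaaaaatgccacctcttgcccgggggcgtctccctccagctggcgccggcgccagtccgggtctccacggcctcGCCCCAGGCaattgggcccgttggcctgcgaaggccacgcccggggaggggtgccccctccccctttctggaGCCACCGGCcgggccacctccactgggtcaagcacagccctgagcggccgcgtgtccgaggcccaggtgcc
Counted from the 5′ end of each window, promoter 1 held an AP-2 match starting at base 100. Promoter 2 held a SMAD box starting at base 29 and AP-2 matches starting at bases 158 and 230. Letters of the FOXH1 and GATA motifs were found in neither window, which says only that they are not in these bases. Among 35116 promoters of the same length, 45.3% held a SMAD box, 23.2% an AP-2 match, 22.7% a GATA match and 11.0% a FOXH1 match, so a match is a description and not a binding site. Of the 7 genes, 4 had promoters in the RefSeq table (GATA2, GATA3, TFAP2A and KRT8).

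GATA2 stood highest in both Activin A groups and lowest in TGFb or plain E7 with 2DG. With Activin A it measured 554 and 593 normalised reads with 2DG, and 602 and 494 without. With NODAL it measured 136 and 184 normalised reads with 2DG, and 264 and 273 without. With TGFb it measured 52.0 and 49.0 normalised reads with 2DG, and 88.1 and 103 without; in plain E7 it measured 56.0 and 68.5 with 2DG, and 92.9 and 84.2 without. The highest group mean was 11.4 times the lowest. In the order of the group means, the neighbours whose libraries overlapped were the 2 Activin A groups, and TGFb and plain E7 without 2DG.

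Activin A and NODAL raised GATA2 relative to plain E7. Without 2DG, GATA2 averaged 548 ± 76.3 normalised reads with Activin A and 88.6 ± 6.10 in plain E7 (SD, n = 2 each), which is 2.61 on the log2 scale (SE 0.17, limma adjusted p = 1.6e-06). NODAL gave 269 ± 6.50 normalised reads against 88.6 ± 6.10 in plain E7, or 1.59 on the log2 scale (SE 0.17, limma adjusted p = 0.00021). With 2DG present, the log2 fold changes were 3.19 for Activin A (limma adjusted p = 8.0e-08) and 1.34 for NODAL (limma adjusted p = 0.0035). TGFb did not pass the test, with a log2 fold change of 0.11 without 2DG (95% interval -0.26 to 0.48) and -0.29 with it. In bulk libraries, more cells with GATA2 and more GATA2 RNA per cell cannot be told apart.

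The NODAL difference with 2DG was no longer called without the first library of E7 with 2DG (1.20, adjusted p = 0.065) or the second of NODAL with 2DG (1.12, adjusted p = 0.080). The other 3 calls against plain E7 held under every alternative, each left-out library included. Activin A and NODAL were used at the same concentration, and a contrast between them was added after the values were seen. GATA2 was higher with Activin A than with NODAL by 1.02 on the log2 scale without 2DG (limma adjusted p = 0.0033) and by 1.85 with 2DG (adjusted p = 1.7e-05), and these 2 calls also held in every left-out fit. This difference was chosen for its size, so its p-values describe it and do not test it independently.

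2DG lowered GATA2 in 3 of the 4 media. In E7 with TGFb the log2 fold change was -0.91 (SE 0.17, limma adjusted p = 0.0060), with NODAL it was -0.76 (adjusted p = 0.022) and in plain E7 it was -0.51 (adjusted p = 0.040), and in none of these media did the libraries of the 2 groups overlap. With 2 libraries a group that is common: 65.8% of all tested genes did not overlap between 2DG and no 2DG in TGFb, 62.7% in NODAL, 68.9% in plain E7 and 33.9% in Activin A. With Activin A the log2 fold change of GATA2 was 0.07 (95% interval -0.30 to 0.44, adjusted p = 0.84), and the groups overlapped. The change with 2DG under Activin A exceeded that in plain E7 by 0.58 on the log2 scale, which did not pass the interaction test (unadjusted p = 0.033, adjusted p = 0.46), so the media are not shown to differ.

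Each of these 3 decreases depended on single libraries. That in plain E7 was not called by edgeR (adjusted p = 0.070) or DESeq2 (0.083) on the recovered reads, nor with every library scaled to the same total (0.061). Nor was it called without the first library of E7 with 2DG (0.25), without either library of plain E7 (0.15 and 0.10), or without either library of NODAL (0.056 each) or of TGFb with 2DG (0.053 each). The decrease with TGFb was not called without its second library with 2DG (0.060) or without 2DG (0.080). The decrease with NODAL was not called without its first library with 2DG (0.24) or without either of those without 2DG (0.11 and 0.15).

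GATA2-AS1, an antisense RNA, overlaps the GATA2 gene on the other strand by 3974 bases, and the strand setting of the counting is not given in the sources used here, so reads of the pair could not be told apart if strand was ignored. GATA2-AS1 averaged 47.1 normalised reads in Activin A with 2DG and 52.2 without, 13.5 in NODAL with 2DG and 26.4 without, 7.67 in TGFb with 2DG and 7.89 without, and 12.7 in plain E7 with 2DG and 8.85 without. Relative to plain E7 it rose with Activin A (log2 fold change 2.44, limma adjusted p = 9.0e-05) and with NODAL (1.48, limma adjusted p = 0.0034). It was not called for 2DG in any medium.

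GATA3, which specifies trophoblast and is also used in breast and T cells, lies on the plus strand of chromosome 10 (chr10:8045378-8075203) and was barely detected, with 1 to 30 reads per library. With Activin A it measured 23.9 and 18.3 normalised reads with 2DG and 19.7 and 28.2 without. With NODAL it measured 6.36 and 6.28 normalised reads with 2DG and 15.8 and 17.0 without. With TGFb it measured 1.96 and 1.09 normalised reads with 2DG and 6.30 and 14.1 without, and in plain E7 7.59 and 8.70 with 2DG and 15.3 and 13.2 without. The libraries with 2DG lay below those without in NODAL, TGFb and plain E7 and overlapped them in Activin A. Most of all tested genes were likewise free of overlap in those 3 media and overlapped in Activin A.

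GATA3 fell with 2DG in E7 with TGFb by 2.08 on the log2 scale (SE 0.41, limma adjusted p = 0.0069). The call rested on 2 libraries, since it was lost without the second of TGFb with 2DG (adjusted p = 0.072) or the second of TGFb (adjusted p = 0.10), and DESeq2 gave no adjusted p. The values for the other media were -1.25 with NODAL (adjusted p = 0.089), -0.74 in plain E7 (0.18) and -0.17 with Activin A (0.84). Activin A with 2DG was 2.40-fold above plain E7 with 2DG on the scale of value + 1 (limma adjusted p = 0.085), and was called with a pseudocount of 8 (log2 fold change 0.84, adjusted p = 0.049). TGFb with 2DG lay below plain E7 with 2DG by a larger amount, -1.88 on the log2 scale with no overlap, which did not pass (unadjusted p = 0.00042, limma adjusted p = 1.0), and 29.8% of all genes did not overlap in that comparison. Activin A exceeded NODAL by 1.58 on the log2 scale with 2DG (adjusted p = 0.024), a call lost without any 1 of the 4 libraries compared (adjusted p = 0.054 to 0.13). Across the 16 libraries GATA3 followed GATA2 with Pearson's r = 0.76 and Spearman's rho = 0.82, as a description over libraries that share their groups.

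**Figure D1:**
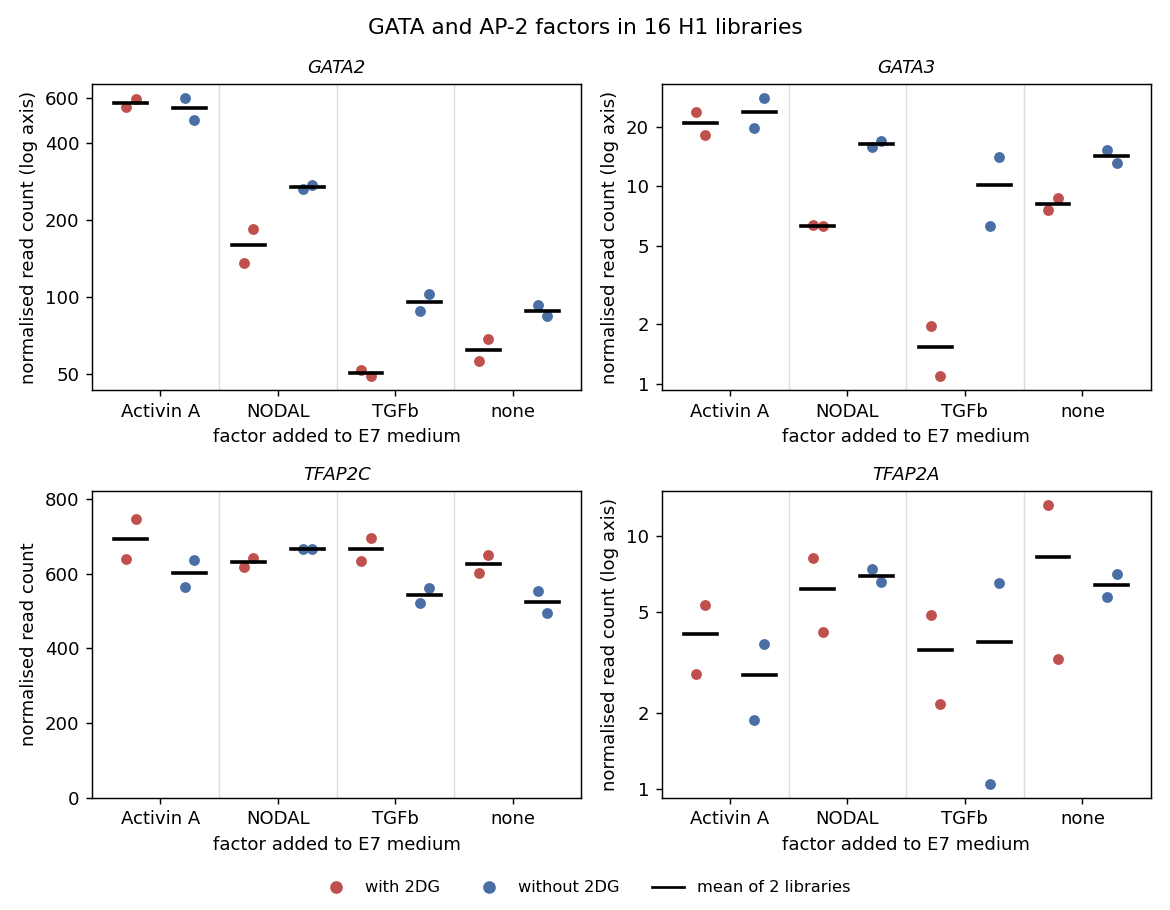
Normalised read counts of GATA2, GATA3, TFAP2C and TFAP2A in the 16 libraries, grouped by the factor added to E7. Points are libraries, with 2DG at the left of each pair, black bars are means of 2 libraries, and the axis is logarithmic except for TFAP2C. GATA2 ran between 494 and 602 in Activin A without 2DG and between 49.0 and 52.0 in TGFb with 2DG, and TFAP2C stayed between 494 and 746.

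TFAP2C, the AP-2 factor of early trophoblast and primordial germ cells (chr20:56629302-56639283, plus strand), was well expressed in every group and varied little. It measured 638 and 746 normalised reads in Activin A with 2DG and 565 and 637 without, 618 and 642 in NODAL with 2DG and 666 and 666 without, 634 and 695 in TGFb with 2DG and 520 and 562 without, and 601 and 650 in plain E7 with 2DG and 552 and 494 without. The highest group mean was 1.32 times the lowest. Its libraries with 2DG lay above those without in Activin A, TGFb and plain E7, and below them in NODAL. Of all tested genes, 33.9% were free of overlap in Activin A, 65.8% in TGFb, 68.9% in plain E7 and 62.7% in NODAL. In Activin A the gap was narrow, 638 against 637 normalised reads. None of these 4 differences was called, with log2 fold changes of 0.20 in Activin A, -0.08 in NODAL, 0.30 in TGFb and 0.26 in plain E7, and the differences for TGFb and plain E7 passed without the 4 Activin A libraries (limma adjusted p = 0.022 and 0.025).

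NODAL gave the only called change of TFAP2C, 666 ± 0.53 normalised reads against 523 ± 41.1 in plain E7 (SD, n = 2 each), a change of 0.35 on the log2 scale (SE 0.11, limma adjusted p = 0.039). The call was lost in 11 of the 16 fits that left out a library, with adjusted p-values up to 0.26 without the second library of plain E7. The others were those without either library of NODAL (0.14 and 0.17), of NODAL with 2DG (0.058 each), of TGFb (0.056 each), of TGFb with 2DG (0.053 each) or of plain E7 with 2DG (0.050 each). Scaling every library to the same total moved the median of all genes for this comparison by 0.12 on the log2 scale, and TFAP2C with it to 0.47.

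TFAP2A, which drives surface ectoderm and neural crest as well as trophoblast (chr6:10393186-10419659, minus strand), had 1 to 14 reads per library. It measured 2.87 and 5.37 normalised reads in Activin A with 2DG and 1.88 and 3.77 without, 8.17 and 4.19 in NODAL with 2DG and 7.39 and 6.60 without, 4.90 and 2.18 in TGFb with 2DG and 1.05 and 6.56 without, and 13.3 and 3.26 in plain E7 with 2DG and 5.74 and 7.10 without. The groups with and without 2DG overlapped in every medium. TFAP2A did not reach the level needed for the test, and with no filter its log2 fold changes ran from -1.11 to 0.42 with none called. The SE in that fit was 0.70 on the log2 scale, and 0.98 for the interactions, so small changes of TFAP2A could be missed. The smallest change detectable at this depth was not computed.

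Per kilobase of the principal transcript in GENCODE 29, the mean level over the 16 libraries ranked KRT8 (3401 normalised reads per kb) and KRT18 (2748) first, then KRT19 (650), TFAP2C (216), GATA2 (68.6), GATA3 (4.81) and TFAP2A (2.54). With the length of all exons of a gene instead, KRT18 (1334) came above KRT8 (1051), so the order of those 2 depends on the length used.

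KRT8, the type II keratin of simple epithelia, and KRT18, its type I partner, lie next to each other on chromosome 12 on opposite strands (chr12:52897187-52949954, minus strand, and chr12:52948871-52952901, plus strand). Their annotated genes overlap by 1084 bases, and reads there could not be told apart if strand was ignored. KRT8 measured 7520 and 5497 normalised reads in Activin A with 2DG and 10247 and 7345 without, and 6568 and 6432 in NODAL with 2DG and 8473 and 7815 without. In TGFb it measured 5692 and 5677 normalised reads with 2DG and 7772 and 7641 without, and in plain E7 5288 and 5941 with 2DG and 8306 and 9463 without. Every library with 2DG was lower than every library without in NODAL, TGFb and plain E7, and the groups overlapped only in Activin A, where fewer of all genes were free of overlap too (33.9%, against 62.7% to 68.9% in the other media).

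KRT8 fell with 2DG in plain E7, to 5614 ± 462 normalised reads against 8885 ± 818 without 2DG (SD, n = 2 each), a change of -0.66 on the log2 scale (SE 0.15, limma adjusted p = 0.0069). The call was lost without the first library of plain E7 with 2DG (adjusted p = 0.065) or the second of plain E7 (adjusted p = 0.077). In the other media the log2 fold changes were -0.44 in TGFb (limma adjusted p = 0.091), -0.43 in Activin A (0.16) and -0.32 in NODAL (0.24), and none passed. The 3 interaction terms, each the change in another medium minus that in plain E7, lay between 0.22 and 0.34 with adjusted p-values of 0.34 or more. The interaction with NODAL (0.34) was called without the 4 Activin A libraries (limma adjusted p = 0.017), and that with TGFb was not. Without the 4 Activin A libraries the changes in TGFb and NODAL were of the same size and were called (limma adjusted p = 0.00019 and 0.0034). The change in Activin A was called without its second library without 2DG (-0.67, adjusted p = 0.0012) or its first with 2DG (-0.66, adjusted p = 0.025). No ligand was called to change KRT8, with log2 fold changes of -0.03 for Activin A, -0.12 for NODAL and -0.20 for TGFb without 2DG, of which the first pair changed sign with every library at the same total and TGFb was called without the Activin A libraries (adjusted p = 0.043). With 2DG the log2 values were 0.20 for Activin A, 0.21 for NODAL and 0.02 for TGFb, none called, and NODAL's passed without the Activin A libraries (adjusted p = 0.045).

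KRT18 had its highest group mean in plain E7 without 2DG. It measured 3640 and 3508 normalised reads in Activin A with 2DG and 5102 and 3440 without, and 4626 and 4291 in NODAL with 2DG and 4666 and 4428 without. In TGFb it measured 3946 and 3921 normalised reads with 2DG and 4172 and 4157 without, and in plain E7 3925 and 4089 with 2DG and 4979 and 5786 without. The groups with and without 2DG overlapped in Activin A and NODAL and did not in TGFb and plain E7. Of all tested genes, 65.8% and 68.9% did not overlap in TGFb and plain E7 either. KRT18 fell with 2DG in plain E7 by 0.42 on the log2 scale (SE 0.14, limma adjusted p = 0.035). The call was lost with every library at the same total (adjusted p = 0.051) and without either library of plain E7 with 2DG (0.15 and 0.097), the second of plain E7 (0.25), or any 1 library of TGFb with or without 2DG (0.051 each). In the other media the log2 fold changes were -0.23 in Activin A, -0.08 in TGFb and -0.03 in NODAL, with adjusted p-values of 0.36 to 0.94. Leaving out 1 library moved the Activin A value between -0.51 and 0.055, with -0.51 reached without the second library of Activin A without 2DG.

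The ligands left KRT18 below plain E7 without passing the test, by log2 fold changes of -0.36 for Activin A (limma adjusted p = 0.13), -0.24 for NODAL (0.24) and -0.37 for TGFb (0.17). Leaving out 1 library moved the Activin A value between -0.64 and -0.073, with -0.64 reached without the first library of Activin A without 2DG. Without the 4 Activin A libraries the NODAL and TGFb values were called (adjusted p = 0.011 and 0.0012). The changes with 2DG in NODAL and in TGFb then also differed from that in plain E7, by 0.39 (adjusted p = 0.0061) and 0.34 (adjusted p = 0.030). With 2DG no ligand was called for KRT18, at log2 values of -0.16 for Activin A, 0.15 for NODAL and -0.03 for TGFb.

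KRT19, the smallest keratin, which lacks the tail domain of other keratins (chr17:41523617-41528308, minus strand), showed no called change. It measured 887 and 863 normalised reads in Activin A with 2DG and 1182 and 749 without, 872 and 914 in NODAL with 2DG and 841 and 714 without, 1033 and 1055 in TGFb with 2DG and 781 and 758 without, and 870 and 1039 in plain E7 with 2DG and 801 and 1098 without. With 2DG it was higher without overlap in TGFb and NODAL, and overlapped in Activin A and plain E7. Of all tested genes, 65.8% and 62.7% did not overlap in TGFb and NODAL either. The difference in TGFb, 0.44 on the log2 scale (SE 0.18, limma adjusted p = 0.16), passed without the 4 Activin A libraries (adjusted p = 0.011). The difference in Activin A, -0.10, ran from -0.43 to 0.22 when 1 library was left out.

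**Figure D2:**
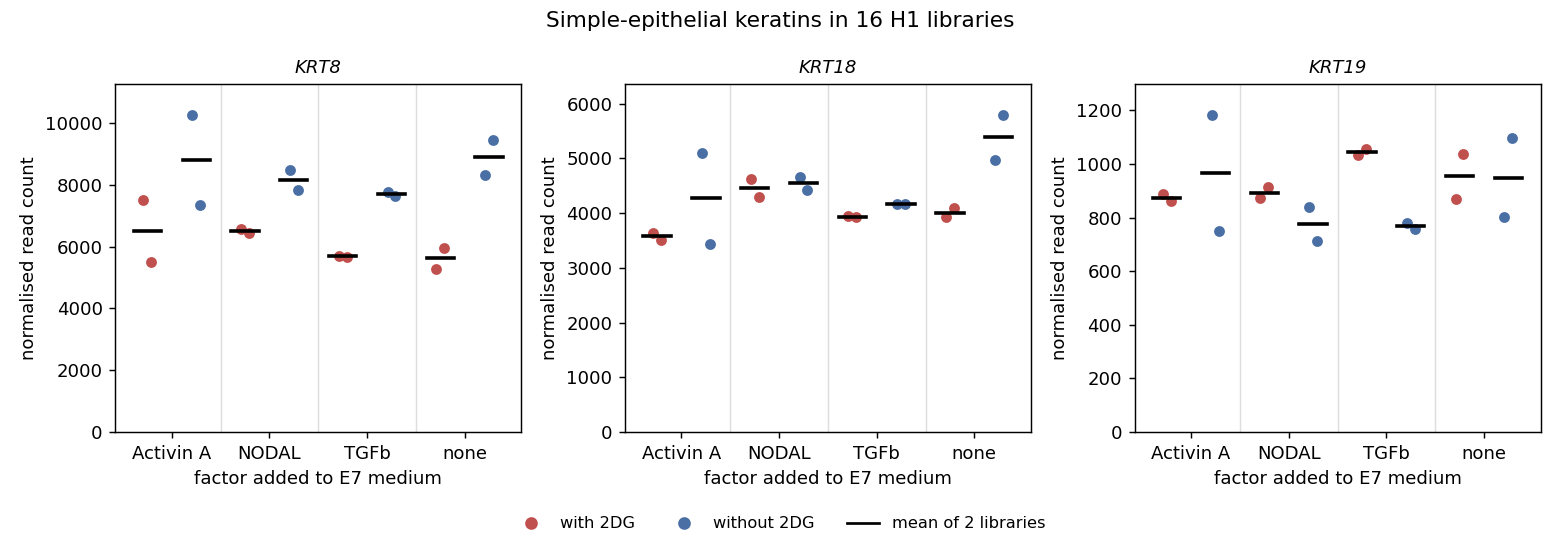
Normalised read counts of KRT8, KRT18 and KRT19 in the 16 libraries by the factor added to E7. Points are libraries, with 2DG at the left of each pair, and black bars are means of 2 libraries. KRT8 lay between 5288 and 5941 in plain E7 with 2DG and between 8306 and 9463 without, and the 2 libraries of Activin A without 2DG were far apart for all 3 keratins.

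KRT8 and KRT18 proteins assemble in equal amounts, and the ratio of their counts within a library takes out its size factor. KRT8 counts over KRT18 counts gave a mean of 1.40 in plain E7 with 2DG and 1.65 without, 1.45 in TGFb with 2DG and 1.85 without, and 1.46 in NODAL with 2DG and 1.79 without. The ranges did not overlap in these 3 media, where 62.7% to 68.9% of single genes did not overlap either. That share was not computed for ratios of 2 genes. In Activin A the ratio was 1.57 and 2.07 with 2DG, and 2.01 and 2.14 without, and the ranges overlapped. The ratio describes an unequal change of the pair and was not tested.

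**Figure D3:**
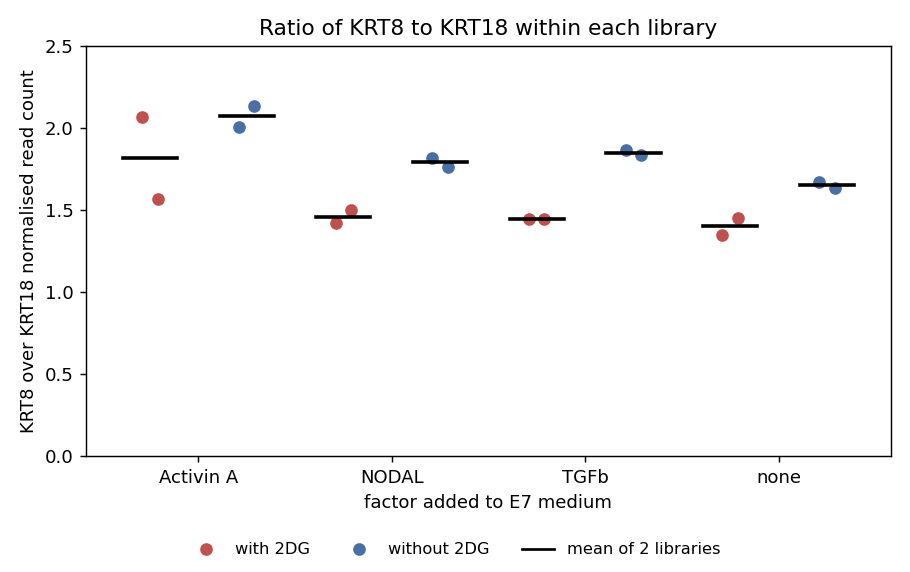
Ratio of KRT8 to KRT18 normalised read counts within each of the 16 libraries, by the factor added to E7. Points are libraries, with 2DG at the left of each pair, and black bars are means of 2 libraries. Mean ratios were 1.40, 1.45 and 1.46 with 2DG and 1.65, 1.85 and 1.79 without in plain E7, TGFb and NODAL, and single libraries ran from 1.57 to 2.14 in Activin A.

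Values that describe the libraries moved beside the keratins. In Activin A without 2DG the first library exceeded the second by 0.48 on the log2 scale for KRT8, 0.57 for KRT18 and 0.66 for KRT19, in the pair whose difference fell with transcript length. The log2 change with 2DG correlated with transcript length across 16335 genes at rho = 0.31 in plain E7, 0.32 in Activin A, 0.01 in TGFb and -0.11 in NODAL. For the ligands against plain E7, rho was 0.13 for Activin A, 0.22 for NODAL and 0.42 for TGFb without 2DG, and -0.03, -0.31 and -0.12 with it. The difference between the 2 libraries of plain E7 alone gave rho = 0.35. The principal transcripts of KRT8, KRT18 and KRT19 are 2126, 1562 and 1390 bases long, and the part of transcript length in their differences was not tested. The 6 pseudogenes of KRT8, KRT18 and KRT19 with values, whose near-identical sequence can take or give reads, gave no call in any comparison (5 tested).

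Set against all genes, the number of calls among the 6 tested genes was as follows. For 2DG in plain E7, 3 fell (GATA2, KRT8 and KRT18), and 14.8% of all genes were called lower and 29.4% in either direction. For 2DG in TGFb, 2 fell (GATA2 and GATA3), where 4.37% of all genes did and 9.84% moved. For 2DG in NODAL, 1 fell (GATA2), where 2.76% of all genes did and 5.88% moved. For 2DG in Activin A, limma called 0 of the 6, KRT8 alone had an unadjusted p under 0.05, and 1.7% of all genes were called. Without the Activin A libraries 5 of the 6 were called for 2DG in TGFb, where 24.6% of all genes were, and 2 in NODAL, where 20.3% of all genes were.

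For the ligands without 2DG, Activin A raised 1 of the 6 (GATA2), where 5.28% of all genes rose and 10% moved, and NODAL raised 2 (GATA2 and TFAP2C), where 10.6% rose and 21.5% moved. With 2DG, Activin A raised GATA2 alone, where 4.27% of all genes rose and 7.52% moved, and NODAL raised GATA2 alone, where 0.425% rose and 0.634% moved. Between Activin A and NODAL, GATA2 was higher without 2DG, where 3.58% of all genes were and 8.01% moved, and GATA2 and GATA3 with 2DG, where 5.26% of all genes were and 9.85% moved. TGFb changed none of them by limma, and 0% of all genes, though 3771 genes without 2DG and 273 with it had an unadjusted p under 0.05, while DESeq2 called 213 and 0 and edgeR called 0 in both. None of the 6 was called in the interactions of 2DG with TGFb (0% of all genes), Activin A (0.0419%) or NODAL (1.87%).

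**Figure D4:**
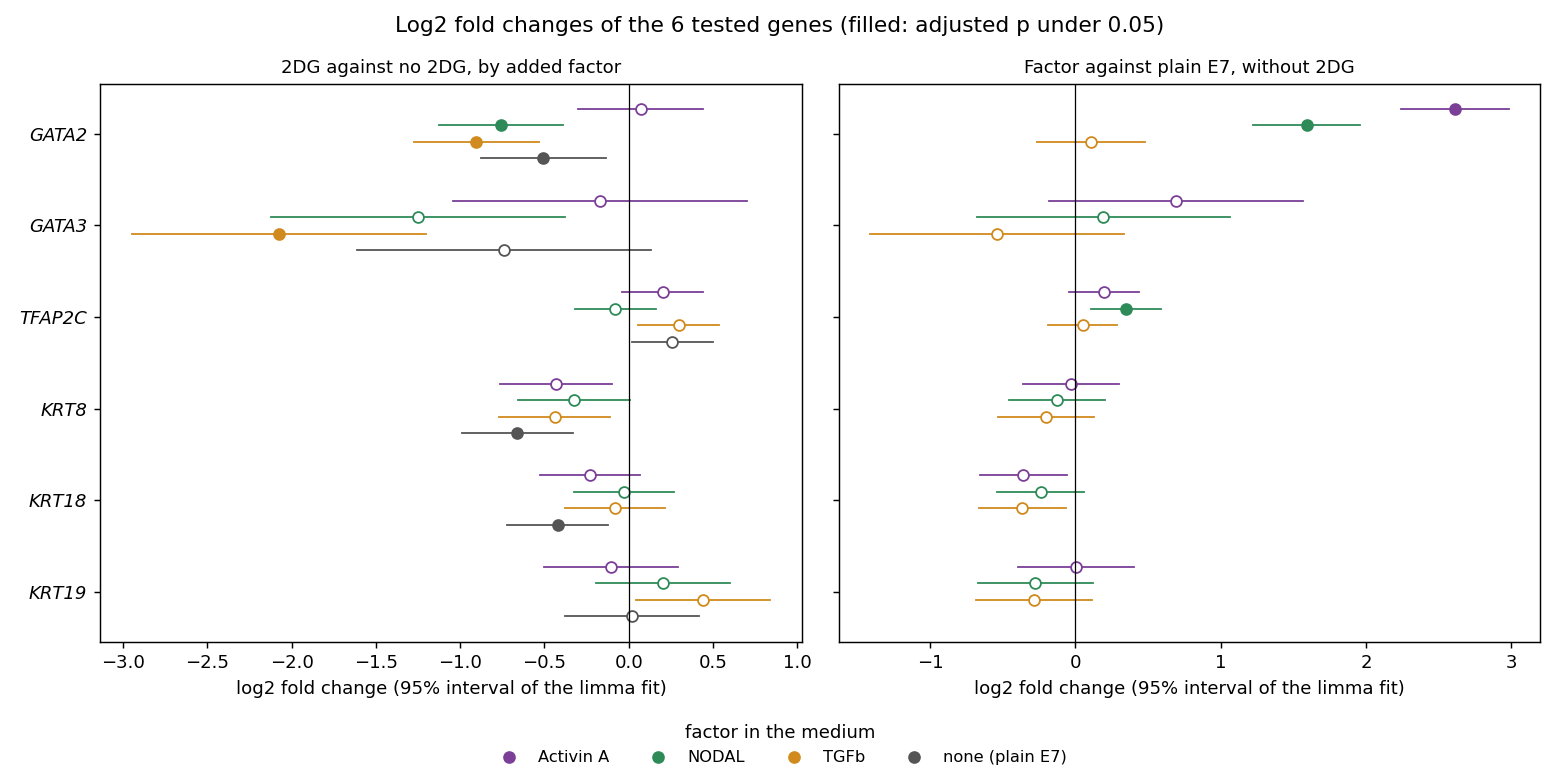
Log2 fold changes of the 6 tested genes with 95% intervals of the limma fit, for 2DG against no 2DG in 4 media (left) and for each factor against plain E7 without 2DG (right). Filled points have an adjusted p under 0.05. GATA2 reached 2.61 with Activin A and 1.59 with NODAL, and its 2DG changes were -0.51, -0.76 and -0.91 in plain E7, NODAL and TGFb and 0.07 in Activin A.

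The wider markers of the same fates are given with log2 fold changes in parentheses, and those said to rise or fall passed the same test. Of all tested genes, 29.4% were called for 2DG in plain E7, 9.84% in TGFb, 5.88% in NODAL and 1.7% in Activin A. Without 2DG, 10% were called for Activin A and 21.5% for NODAL. Of 44 trophoblast genes besides the 7, 16 have values here and 15 were tested. CDX2, ELF5, TP63, the chorionic gonadotropin subunit gene CGA and HAND1 were among the listed genes that have no values here. With Activin A, 2 of the 15 rose and 2 fell: CCKBR, a gastrin receptor (1.39), ARID3A, a regulator of trophectoderm (0.55), KRT7, the type II keratin of trophoblast (-1.50), and EPAS1, a hypoxia-inducible factor (-1.07), with a median of 0.10 over the 15 against -0.01 over all genes. With NODAL, ARID3A (0.49) and the TEA-domain factor TEAD3 (0.39) rose and KRT7 fell (-0.79). With 2DG in plain E7, TEAD3 rose (0.47) and SDC1, the syndecan of syncytiotrophoblast, fell (-0.54). The summed level of the 16 genes was 4570 to 4639 normalised reads in Activin A with 2DG and 4363 to 4866 without, 3867 to 4091 in NODAL with 2DG and 4310 to 4391 without, 3904 to 4098 in TGFb with 2DG and 4212 to 4281 without, and 3817 to 4012 in plain E7 with 2DG and 3820 to 4052 without.

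KRT7 went the other way from GATA2 in each comparison that called both. It measured 42.0 and 36.5 normalised reads in Activin A with 2DG and 35.6 and 28.2 without, 94.4 and 99.5 in NODAL with 2DG and 54.9 and 49.9 without, 149 and 147 in TGFb with 2DG and 73.5 and 89.9 without, and 102 and 144 in plain E7 with 2DG and 82.3 and 101 without. It was lower with Activin A (log2 fold change -1.50, limma adjusted p = 0.00042) and with NODAL (-0.79, adjusted p = 0.018) than in plain E7. It was higher with 2DG in TGFb (0.86, adjusted p = 0.021) and in NODAL (0.88, adjusted p = 0.027).

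Of 33 surface ectoderm and epidermis genes, 23 have values and 22 were tested. With 2DG in plain E7, 4 rose and 2 fell, a number near the 29.4% of all genes called there. Among them were FOXI3, a factor of the preplacodal ectoderm (1.17), the epithelial cadherin CDH1 (0.62), GRHL2, a factor of epithelial identity (0.56), and PERP, a desmosome gene (-0.56). In TGFb, FOXI3 (0.78) and the adhesion molecule EPCAM (0.59) rose with 2DG and SIX4 fell (-0.52). With Activin A or NODAL none of the 22 was called without 2DG. Of 11 amnion genes, 3 have values, and GABRP, a subunit of the GABA receptor (-2.11), and IGFBP3 (-1.18) fell with Activin A. IGFBP3 rose with 2DG in all 4 media, by 0.80 to 1.20, while GABRP fell with 2DG in plain E7. The median over the 3 was -0.07 there. With 2DG present, Activin A raised 1 of the 3 and lowered 2.

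GATA2 also marks blood and endothelial progenitors, and some genes of mesoderm and endothelium rose with Activin A or NODAL without 2DG. Of 17 such genes, 10 have values and 9 were tested, and 5 of the 9 rose with Activin A: GATA4 (1.77), FLI1 (1.61), RUNX1 (1.61), LMO2 (1.49) and PDGFRA (0.81). With NODAL, RUNX1 rose (1.16) and PDGFRA fell (-0.71). Of all genes, 5.28% rose with Activin A and 10.6% with NODAL in these comparisons without 2DG. With 2DG present, Activin A raised 2 of the 9, GATA4 and FLI1, where 4.27% of all genes rose. NODAL with 2DG changed none of the 9, with a median of -0.11. With 2DG in plain E7, where GATA2 fell, RUNX1 (1.28) and KDR (0.84) rose and FLI1 fell (-1.19), with a median of 0.18 over the 9, and with 2DG in the other 3 media none was called. GATA4, a cardiac and endodermal relative of GATA2, averaged 39.5 normalised reads with Activin A and 10.8 in plain E7. The summed level of the 10 genes was 1899 to 1999 normalised reads in Activin A with 2DG and 1232 to 2002 without, 2476 to 2679 in NODAL with 2DG and 1928 to 2076 without, 2685 to 2724 in TGFb with 2DG and 2059 to 2150 without, and 2695 to 2886 in plain E7 with 2DG and 1455 to 1795 without. PECAM1, CDH5 and SOX17 were among the listed genes that have no values here, and the part of such cells in the GATA2 result was not tested.

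Targets of BMP, the signal that drives trophoblast-like and surface ectoderm fates, had 10 tested members. With Activin A, 5 of the 10 rose, led by ID4 (1.60), SMAD6 (1.16), BAMBI (1.04) and ID1 (0.82), with a median of 0.40 against -0.01 over all genes. NODAL raised 1, SMAD6 (0.74). Of all genes, 5.28% rose with Activin A and 10.6% with NODAL. With 2DG present, Activin A raised 5 of the 10, where 4.27% of all genes rose, and NODAL changed none. Compared with NODAL, Activin A was higher for 4 without 2DG, where 3.58% of all genes were. With 2DG it was higher for 3 and lower for 1, where 5.26% of all genes were higher. The summed level of the 11 listed targets with values was 4879 to 6379 normalised reads in Activin A with 2DG and 6764 to 9158 without, 4436 to 4729 in NODAL with 2DG and 4561 to 4746 without, 3679 to 3834 in TGFb with 2DG and 4469 to 4485 without, and 3514 to 3899 in plain E7 with 2DG and 4952 to 6169 without. With 2DG in plain E7, 5 fell and 1 rose, the dimerisation inhibitors ID3 (-1.15) and ID1 (-0.59) and the feedback inhibitor SMAD7 (-0.71) falling and ID4 rising (0.60), with a median of -0.40 over the 10. GATA2, KRT8 and KRT18 fell in that same comparison, where 14.8% of all genes did. With 2DG in TGFb, where GATA2 and GATA3 fell, 1 of the 10 targets rose and 1 fell, with a median of -0.17. With 2DG in NODAL, where GATA2 fell, 1 target fell and the median was 0.05. In Activin A 1 target fell with 2DG. Of all tested genes, 9.84% were called for 2DG in TGFb, 5.88% in NODAL and 1.7% in Activin A. A link between the targets and the 7 genes was not tested.

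Among 18 tested keratin partners and desmosome genes, 5 rose and 1 fell with 2DG in plain E7, where 29.4% of all genes were called. The risers included the linkers EPPK1 (1.20) and PLEC (1.13), FAM83H (0.89), which organises keratin filaments, and vimentin, VIM (0.88), while KRT8 and KRT18 fell. Of 11 tested cofactors of GATA and AP-2 proteins, 3 rose with 2DG in plain E7, the acetyltransferases CREBBP (1.65) and EP300 (1.55) and the AP-2 inhibitor KCTD15 (0.60). KCTD15 also rose with 2DG in TGFb (0.49) and NODAL (0.50), where no other cofactor was called. Of the keratin partners, only VIM and FAM83H rose with 2DG in TGFb, and TCHP and CTNNA1 fell in NODAL. With 2DG in Activin A none of either list was called. The interaction test called the change of PLEC with 2DG lower in NODAL than in plain E7. Over all genes the change with 2DG correlated with transcript length at rho = 0.31 in plain E7 and 0.01 in TGFb. The part of transcript length in these changes was not tested. The ligands without 2DG also moved both lists. Activin A raised 5 of the 18 keratin partners, VIM, PPL, TCHP and PLEC among them. Of the 11 cofactors it raised 2 and lowered 1 (LMO2, CITED2 and KCTD15), where 10% of all genes were called. NODAL raised 4 of the 18 (TCHP, PLEC, PPL and FAM83H) and, of the cofactors, only ZFPM1, a GATA partner (0.85), where 21.5% were called.

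By pattern over the 16 libraries, the genes most like GATA2 among 10702 with a mean of at least 100 were PMEPA1 (Pearson's r = 0.98), ITGB5 (0.98) and ALDH3A2 (0.98). PMEPA1, a feedback inhibitor of TGFb signalling, averaged 1853 normalised reads in Activin A with 2DG and 1794 without, 747 in NODAL with 2DG and 1197 without, 482 in TGFb with 2DG and 730 without, and 560 in plain E7 with 2DG and 717 without. STYX (0.89), GNA14 (0.89) and S1PR3 (0.88) were most like GATA3, and LINC01090 (0.92), RXRA (0.88) and BEND7 (0.88) most like TFAP2C. PGAM1 (0.99), a glycolytic enzyme, STMN1 (0.99) and ARL3 (0.98) were most like KRT8. MRPL2 (0.96), C4orf3 (0.96) and C20orf27 (0.95) were most like KRT18, and SSU72 (0.94), NABP2 (0.92) and RPUSD1 (0.92) most like KRT19. For TFAP2A the nearest was BBIP1 (0.72), at counts where a weak correlation says little. KRT8 and KRT18 followed each other with r = 0.68, and TFAP2C ran against both (r = -0.61 with KRT8 and -0.64 with KRT18). These correlations are over libraries that share groups and depth.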

How the data were processed

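Polyadenylated RNA of 16 H1 libraries was sequenced. The authors deposited 1 table of a signal, gene read counts scaled by a size factor. Tools listed in the submitters' processing notes are featureCounts 1.5.3, DESeq2 1.26.0, Trimmomatic 0.36 and STAR, with the build hg38. Their roles, the annotation and the strand setting are not given in the sources used here. Dividing each value by that of 1 read gave whole numbers for 100% of values within 1e-06, so whole reads were recovered. The lowest value in the table was 1 read.

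limma 3.58.1 in R 4.3.3, with an intensity trend, was fitted to log2(value + 1) of 16714 genes over 8 group means, and fold changes are on that scale, which understates those of low genes. Alternatives on those reads were DESeq2 1.42.0 and edgeR 4.0.16. For 2DG in plain E7, limma called 4913 genes, edgeR 4838 and DESeq2 4787. The method was tested on simulated counts. The 7 genes and the lists were chosen with earlier results of these data known. All 7 are named everywhere. Up to 4 called genes of a list with the largest change are named, with the 3 most alike genes; PDGFRA was named beyond this after its value was seen. Activin A against NODAL was added after the data were seen. Replicate numbers did not pair the samples (28 group pairs, 3 with r over 0.1). Genes were matched to GENCODE 29 by symbol.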

Additional observations from a re-analysis of the deposited data

How the results depend on the processing

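Of 90 log2 fold changes of the 6 tested genes over 15 comparisons, 14 were called, and 5 of them, all of GATA2 with Activin A or NODAL, kept their call in every alternative. With the replicate number as a block 14 were called, and the number of members called was unchanged in each comparison (3 for 2DG in plain E7); the block left 0 of 313 genes for the interaction of 2DG and NODAL.

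The number of the 6 called for 2DG in plain E7 was 1 with every library at the same total. For 2DG in TGFb it was 1 with a mean of at least 50 and with DESeq2, and 5 without the Activin A libraries. Without those libraries it was 2 for 2DG in NODAL, 2 for TGFb, 2 for NODAL with 2DG, and 1 and 2 for the interactions with TGFb and NODAL. It was 2 for Activin A with 2DG at a pseudocount of 8, and 1 for Activin A against NODAL with 2DG at a mean of at least 50. Leaving out 1 library gave 0 to 4 for 2DG in plain E7, 0 to 5 in TGFb, 0 to 3 in Activin A and 0 to 1 in NODAL. It gave 0 to 1 for TGFb, 1 to 2 for Activin A, 1 to 3 for NODAL and 0 to 1 for NODAL with 2DG. It gave 0 to 1 for the interactions with Activin A and NODAL, and 1 to 2 without and 1 to 3 with 2DG for Activin A against NODAL.

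Some values that were uncalled in the main fit changed sign, and the cause was not tested. Not all of them were near 0 in the main fit. KRT19 for Activin A against NODAL without 2DG was 0.28 there, and KRT18 for 2DG in Activin A was -0.23. With every library at the same total KRT8 gave 0.010 for Activin A and 0.0019 for NODAL, and TFAP2C -0.021 for the interaction with TGFb. KRT8 for Activin A against NODAL with 2DG gave 0.0015 with edgeR and 0.0016 with DESeq2. Leaving out 1 library, the log2 ranges for 2DG in plain E7 were -0.21 to 0.25 (KRT19). For 2DG in Activin A they were -0.071 to 0.21 (GATA2), -0.42 to 0.081 (GATA3), -0.51 to 0.055 (KRT18) and -0.43 to 0.22 (KRT19), and in NODAL -0.083 to 0.025 (KRT18). For TGFb they were -0.0050 to 0.22 (GATA2) and -0.030 to 0.13 (TFAP2C), for Activin A -0.27 to 0.21 (KRT8) and -0.33 to 0.33 (KRT19). With 2DG they were -0.064 to 0.10 (KRT8) and -0.056 to 0.0031 (KRT18) for TGFb, -0.028 to 0.42 (KRT8) and -0.25 to 0.0080 (KRT19) for Activin A, and -0.046 to 0.069 (TFAP2C) and -0.22 to 0.037 (KRT19) for NODAL. For interactions they were -0.043 to 0.12 (TFAP2C, TGFb), -0.17 to 0.057 (TFAP2C), -0.011 to 0.47 (KRT8), -0.092 to 0.48 (KRT18) and -0.45 to 0.21 (KRT19) with Activin A, and -0.043 to 0.41 (KRT19, NODAL). For Activin A against NODAL they were -0.15 to 0.33 (KRT8), -0.40 to 0.17 (KRT18) and -0.050 to 0.61 (KRT19) without 2DG, and -0.24 to 0.21 (KRT8) and -0.063 to 0.0054 (KRT19) with 2DG.

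Counts over all genes moved by over 1.5 times without the Activin A libraries, to 7590 for 2DG in plain E7 (4913 with them), 4109 in TGFb (1644) and 3388 in NODAL (982). They moved to 4381 for TGFb (0), 6479 for NODAL (3601), 2952 for NODAL with 2DG (106), and 2457 and 4800 for the interactions with TGFb (0) and NODAL (313). DESeq2 called 602 for 2DG in Activin A (284), 278 for NODAL with 2DG (106), and 44 and 1684 for the interactions with Activin A (7) and NODAL (313). The interaction with Activin A gave 11 with TMM factors and 12 at a mean of at least 50, and that with NODAL 847 at a mean of at least 50. For NODAL, the same total in every library called 2675 of 3591 genes higher, against 1780 of 3601. GATA3 and TFAP2A, with 1 to 30 and 1 to 14 reads, are limited by depth.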

Other observations

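Of 5 tested relatives and antisense partners of the 4 transcription factors, GATA4 and GATA2-AS1 rose with Activin A, as given above, and GATA5 and TFAP4 rose with 2DG. GATA5, a relative of GATA2 known from heart and endoderm, averaged 75.8 normalised reads in plain E7 with 2DG and 48.6 without (log2 fold change 0.63, limma adjusted p = 0.038), and 81.7 in TGFb with 2DG and 49.3 without (0.72, limma adjusted p = 0.046). None of the 5 was called for 2DG in NODAL or Activin A. TFAP4, which shares its name with the AP-2 family but is a helix-loop-helix factor, averaged 402 normalised reads in TGFb with 2DG and 299 without (0.42, limma adjusted p = 0.047). It was not called for 2DG in plain E7 (0.10), and it was lower in Activin A with 2DG than in plain E7 with 2DG (-0.43, limma adjusted p = 0.049).

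Of 13 neural crest genes, 6 were tested. With 2DG in plain E7 SOX9 rose (0.79) and ETS1 fell (-0.48), while ETS1 rose with Activin A (1.01). SOX9 and ETS1 were also called with 2DG in TGFb, 1 higher and 1 lower. ETS1 fell with 2DG in NODAL, and ZIC1 rose with NODAL without 2DG. Of 10 fibroblast genes, 6 were tested. COL6A3 rose with 2DG in plain E7 (3.49), TGFb (2.86) and Activin A (2.17), while THY1 fell with 2DG in plain E7 (-0.47) and TGFb (-0.51). FBN1 also rose with 2DG in plain E7, COL1A2 fell with 2DG in NODAL, and COL6A3 rose with NODAL without 2DG. Of all tested genes, 29.4% were called for 2DG in plain E7, 9.84% in TGFb, 5.88% in NODAL and 1.7% in Activin A. For Activin A and NODAL without 2DG the shares were 10% and 21.5%. The part of transcript length in these calls was not tested.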
